A study of Homo sapiens with 6 samples.

Results

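The autophagy genes examined here are the core machinery that builds the autophagosome and the receptors that load cargo into it. They are 39 genes listed by symbol and not by measured values, though earlier results of these data were known when they were chosen. Of these, 38 have a row among the 18625 genes of the NB4 table. ULK2 had no row under its symbol or its Ensembl identifier and was not analysed here. RNA-seq was performed on NB4 cells, a human acute promyelocytic leukemia line that carries the PML-RARA fusion, after 3 days in DMSO (3 libraries) or in 10 μM Tan I (3 libraries). Tan I is tanshinone I, a diterpenoid quinone from the root of Salvia miltiorrhiza, which the study examined as an inhibitor of the histone methyltransferase EZH2. All libraries came from this 1 cell line, no genetic change separated the groups, and the labels do not say whether the 3 libraries of a group came from separate cultures, so that p-values measure only the spread between these libraries.

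Macroautophagy encloses cytoplasm in a pair of membranes and delivers it to the lysosome. The ULK1 kinase complex starts the process, the class III PI3-kinase complex marks the site with phosphatidylinositol 3-phosphate, ATG9A vesicles and ATG2 proteins supply lipid, and 2 ubiquitin-like conjugation systems couple ATG8 proteins to the growing membrane, where receptors dock their cargo. Autophagy is known to take part in the degradation of PML-RARA and in the maturation of promyelocytic leukemia cells under differentiating drugs, and much of its control acts on the proteins rather than on their mRNAs, which are what was measured here.

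All 38 genes had a mean of at least 10 normalized counts over the 6 libraries, the minimum set for testing, and 35 of them had a mean of at least 300. A normalized count is a read count divided by 1 size factor per library. The DMSO libraries held 25356503 to 31679138 reads on the listed genes and the Tan I libraries 21502760 to 24298627. The first principal component (PC1) of all 16887 genes tested held 70.8% of the variance and did not follow the treatment, with DMSO replicate 2 (41.1) and Tan I replicate 3 (71.6) at its high end and DMSO replicate 1 (-48.0) and Tan I replicate 1 (-46.8) at its low end. MPO, a defining granule enzyme of promyelocytes, was the strongest of the promyelocyte markers at 33279 to 64107 normalized counts. ELANE was not listed and was not analysed here. Of the markers of other cell types, CD3E (8.67 to 20.02 normalized counts) and CD14 (5.47 to 18.7) were near the minimum, while CD3D reached 514.8. The summed level of the 8 listed markers was 898.9 to 1067 in DMSO and 856.2 to 1199 in Tan I. The part of these markers in the autophagy results was not tested.

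None of the 38 autophagy genes passed the test for a difference between Tan I and DMSO. Differences were tested with limma on log2(normalized count + 1), on which scale all fold changes below are given, and a gene was called where p was 0.05 or less and the log2 fold change was 0.25 or more in size. With unadjusted p-values, 0 of 38 autophagy genes were called in limma, beside 408 of 16887 genes tested (2.42%), and the count was also 0 with edgeR (2.42% of all genes) and with DESeq2 (2.49%) on the recovered reads. With p-values adjusted over all genes tested, 0 autophagy genes and 0 genes in all (0%) were called in limma, while DESeq2 called 16 genes (0.12% of those it gave an adjusted p), with 0 autophagy genes among them. The smallest unadjusted limma p among the autophagy genes was 0.143, for ATG4A, and every adjusted p was 0.999. Of the 38 genes, 19 had a higher and 19 a lower estimate in Tan I. Their median log2 fold change was 0.00026, against -0.0016 over all genes tested. The median size of the change, irrespective of sign, was 0.11 for the autophagy genes, 0.14 for all genes and 0.11 for all genes with a mean of at least 100. In bulk RNA, fewer cells of a type and less RNA per cell cannot be told apart.

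The changes that the limma fit does not exclude are given by the confidence interval of each gene, taken 1 gene at a time. The 95% confidence interval of the log2 fold change held 0 for 38 of the 38 genes and lay inside -1 and 1 for all 38. For 22 genes it lay inside -0.5 and 0.5. The outermost bounds were -0.93, for ATG2B, and 0.73, for ATG4C, and the median distance from the estimate to either bound was 0.32. For 26 genes the difference was smaller than the SD within groups. A log2 fold change of 0.25 or more in size was reached by 2 genes (5.26%), ATG4A (0.28) and ATG2B (-0.27), compared with 28.1% of all genes tested. That share includes genes of low count, whereas 35 autophagy genes had a mean of at least 300, and a share at like counts was not computed. The median size of the change was 0.11 both for the autophagy genes and for all genes with a mean of at least 100. ATG4A and ATG2B both moved with single libraries. ATG2B was at -0.0033 without Tan I replicate 3, at -0.11 without DMSO replicate 1, at -0.48 without DMSO replicate 2 and at -0.50 without Tan I replicate 1. ATG4A was at 0.16 without Tan I replicate 3 and at 0.19 without DMSO replicate 1. Its lowest Tan I library was replicate 1 (421.3 normalized counts) and its highest DMSO library was replicate 2 (466.2). Leaving out either of these therefore raises the estimate of ATG4A.

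**Figure D1:**
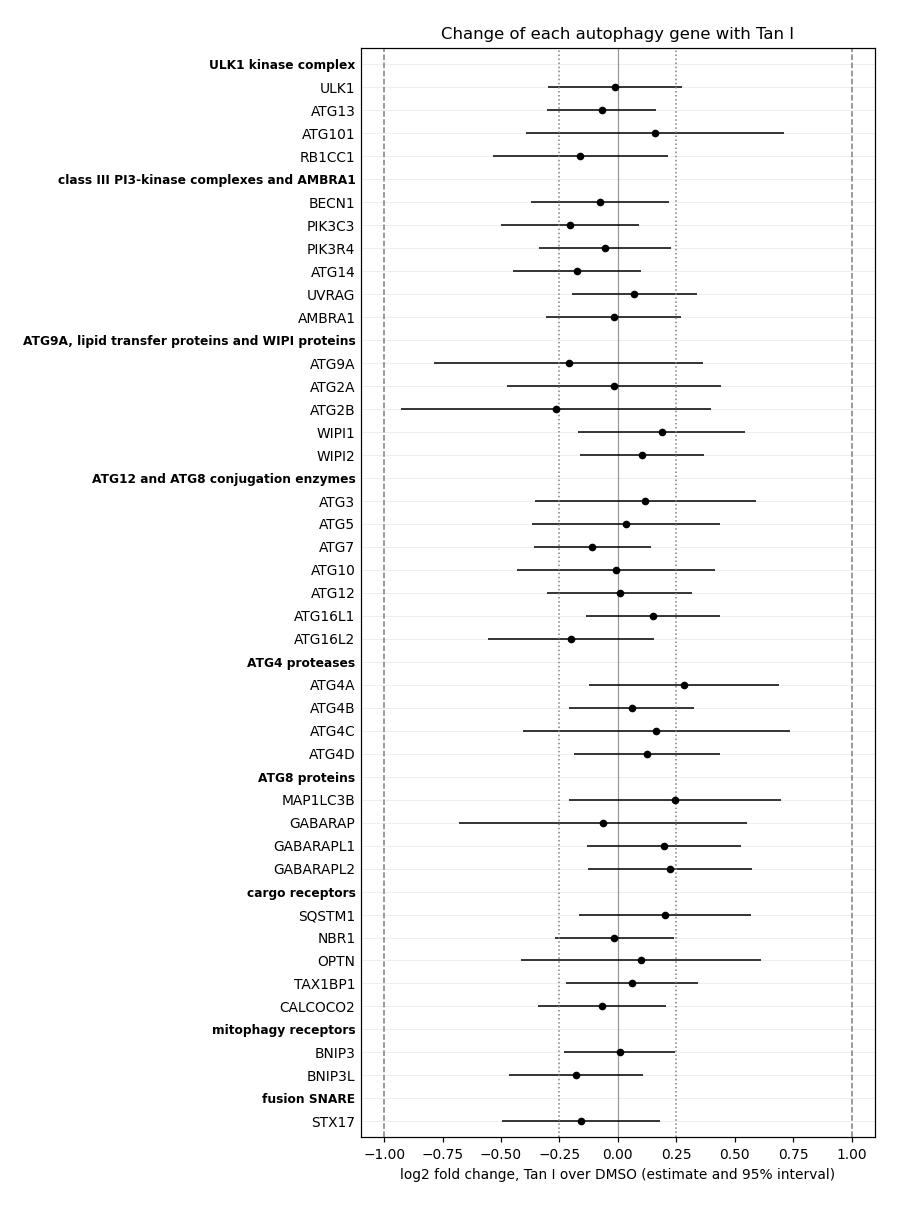
Change from DMSO to Tan I (log2) in the 38 autophagy genes, grouped by role, on log2(normalized count + 1); points are limma estimates and lines their 95% confidence intervals (3 libraries per group). Dotted lines mark -0.25 and 0.25 and dashed lines -1 and 1; all 38 intervals cross 0 and none reaches a dashed line.

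The ULK1 kinase complex showed no called change among its 4 measured genes, with log2 fold changes from -0.16 to 0.16. ULK1, the kinase itself, had 2856, 2302 and 2772 normalized counts in DMSO replicates 1, 2 and 3 and 2587, 2743 and 2507 in Tan I replicates 1, 2 and 3. The Tan I values lay within the range of the DMSO values (log2 fold change -0.01, SE 0.12). ATG13, the adaptor of the kinase, was the steadiest of the complex, at 3383, 3427 and 3540.4 in DMSO and 3164, 3398 and 3302 in Tan I. RB1CC1 (FIP200), the large scaffold, had an estimate of -0.16 (SE 0.16), and ATG101, which stabilizes ATG13, one of 0.16 (SE 0.24). ATG101 ranged from 307.7 to 458.5 in DMSO and from 332.3 to 521.4 in Tan I, so that the groups overlapped over most of their width.

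Of the 6 genes of the class III PI3-kinase complexes and AMBRA1, 5 had a lower estimate in Tan I, and in 2 of them the libraries of the groups did not overlap. Over all genes tested, 49.7% had a higher estimate in Tan I, and the groups did not overlap in 7.89% (3.97% with Tan I lower). PIK3C3 (VPS34), the lipid kinase of both complexes, had 441.0, 458.5 and 419.6 normalized counts in DMSO and 382.2, 352.0 and 412.1 in Tan I. All Tan I libraries lay below all DMSO libraries, with Tan I replicate 3 close to DMSO replicate 3, and the log2 fold change was -0.20 (SE 0.13, limma unadjusted p = 0.149, 95% confidence interval -0.50 to 0.09). ATG14, the subunit that directs the complex to autophagosome formation sites, had 481.1, 513.4 and 465.7 in DMSO and 446.7, 422.6 and 422.7 in Tan I. Its groups were likewise separate, with a log2 fold change of -0.18 (SE 0.12, limma unadjusted p = 0.176). Of the exon bases of ATG14, 20.8% also lie in FBXO34 on the opposite strand. UVRAG, which takes the place of ATG14 in the complex of the endosomal route, had an estimate on the other side, 0.07 (SE 0.11). The common subunits BECN1 (-0.08, SE 0.13) and PIK3R4 (VPS15, -0.05, SE 0.12), and AMBRA1, a regulator that binds BECN1 (-0.02, SE 0.12), overlapped between groups.

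Of the 5 genes for membrane supply, ATG2A, ATG2B and ATG9A differed more between libraries of 1 group than between groups. ATG2B, a lipid transfer protein, had 1806, 1078 and 1569 normalized counts in DMSO and 1663, 1260.5 and 838.8 in Tan I. Its highest library was 2.15 times its lowest, the widest spread of the 38 genes, and its log2 fold change of -0.27 had an SE of 0.28. ATG9A, the membrane protein of the seed vesicles, ranged from 407.4 to 604.0 in DMSO and from 342.7 to 603.1 in Tan I (log2 fold change -0.21, SE 0.25). Without Tan I replicate 3 its estimate was -0.0049, and without Tan I replicate 1 it was -0.41. A readthrough gene on the same strand covers 38.8% of the exon bases of ATG9A, so that its count is uncertain. ATG2A, the paralog of ATG2B, had nearly equal means, 1601 ± 308.8 under DMSO and 1580.0 ± 300.8 under Tan I (SD, n = 3 each). WIPI1 (0.19, SE 0.15) and WIPI2 (0.10, SE 0.11), which read the phosphatidylinositol 3-phosphate mark, had higher estimates with overlapping groups. Other genes, mostly ARSG on the opposite strand, hold 28.1% of the exon bases of WIPI1, whose estimate without DMSO replicate 1 was 0.075.

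The 7 conjugation genes held 1 gene with separate groups in each direction, beside 3.97% of all genes tested with Tan I lower and 3.92% with Tan I higher. ATG7, the E1-like enzyme shared by both conjugation systems, had 801.9, 775.4 and 792.3 normalized counts in DMSO and 731.1, 700.8 and 766.8 in Tan I. The Tan I libraries all lay below, by a log2 fold change of -0.11 (SE 0.11, limma unadjusted p = 0.343), and the closest libraries were DMSO replicate 2 and Tan I replicate 3. Of the exon bases of ATG7, 18.1% also lie in VGLL4 on the opposite strand. ATG16L1, which places the ATG12-ATG5 conjugate on the membrane, had 665.8, 660.7 and 632.1 in DMSO and 669.5, 811.5 and 701.5 in Tan I. Here all Tan I libraries lay above, with Tan I replicate 2 the highest and Tan I replicate 1 just above DMSO replicate 1 (log2 fold change 0.15, SE 0.12, limma unadjusted p = 0.254; 0.07 without Tan I replicate 2). ATG16L2, its paralog, had the highest level of the 7 genes per length and an estimate of -0.20 (SE 0.15) with overlapping groups. The remaining 4 genes, the E2-like enzymes ATG3 and ATG10, and ATG5 and ATG12, the pair that ATG10 joins, had estimates from -0.01 to 0.12 and overlapped.

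Separate groups were found in 4 of 38 autophagy genes (10.5%), compared with 7.89% of all genes tested. The 3 lower ones (7.89%) stood beside 3.97% of all genes, and the 1 higher one beside 3.92%. With quantile normalization the count was 6 autophagy genes (7.53% of all genes), and with each library set to an equal total it was 4 (8.3% of all genes). In each of the 4 genes the exact two-sided permutation test gave p = 0.1, the smallest that 3 libraries against 3 allow. This permutation test therefore cannot reach 0.05 for a single gene, a limit that limma does not share. The 4 genes are shown here because they are those whose libraries did not overlap. Each is given with the promoter listed first for it in the RefSeq set, and any other promoter of the gene was not searched. The sequences run from 250 bases before to 50 after the start site on GRCh38.p14, 5′ to 3′ on the gene's strand. PIK3C3 is at chr18:41954984-41955283 (+), ATG14 at chr14:55411781-55412080 (-), ATG7 at chr3:11272147-11272446 (+) and ATG16L1 at chr2:233251423-233251722 (+). Capitals mark CACGTG, the palindromic core of the element bound by TFEB and TFE3, which are known to drive genes of autophagy and lysosomes.
PIK3C3: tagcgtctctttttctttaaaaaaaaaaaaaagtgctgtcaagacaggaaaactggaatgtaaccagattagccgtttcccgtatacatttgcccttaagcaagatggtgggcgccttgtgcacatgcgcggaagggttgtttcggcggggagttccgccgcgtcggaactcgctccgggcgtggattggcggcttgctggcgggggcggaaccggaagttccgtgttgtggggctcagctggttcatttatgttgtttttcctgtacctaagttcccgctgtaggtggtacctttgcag
ATG14: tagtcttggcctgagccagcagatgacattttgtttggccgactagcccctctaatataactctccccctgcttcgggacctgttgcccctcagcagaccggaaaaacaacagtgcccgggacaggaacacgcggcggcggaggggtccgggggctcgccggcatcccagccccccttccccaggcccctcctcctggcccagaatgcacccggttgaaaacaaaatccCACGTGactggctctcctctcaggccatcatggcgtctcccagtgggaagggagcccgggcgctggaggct
ATG7: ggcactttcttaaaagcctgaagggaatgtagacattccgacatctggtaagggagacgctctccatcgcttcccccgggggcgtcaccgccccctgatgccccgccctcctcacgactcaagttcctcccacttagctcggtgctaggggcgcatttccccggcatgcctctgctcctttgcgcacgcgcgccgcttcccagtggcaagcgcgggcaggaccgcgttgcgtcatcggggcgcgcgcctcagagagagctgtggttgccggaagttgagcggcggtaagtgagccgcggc
ATG16L1: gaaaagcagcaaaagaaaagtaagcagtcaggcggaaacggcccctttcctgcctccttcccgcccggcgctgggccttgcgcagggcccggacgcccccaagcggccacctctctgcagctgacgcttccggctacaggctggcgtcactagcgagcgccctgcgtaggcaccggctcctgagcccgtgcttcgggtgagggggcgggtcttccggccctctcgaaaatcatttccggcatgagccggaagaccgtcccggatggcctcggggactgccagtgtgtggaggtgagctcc
CACGTG, which reads the same on both strands and was searched with no other motif, occurred once in the promoter of ATG14, from 21 bases before the start site, and not in those of PIK3C3, ATG7 or ATG16L1. Of the 33 autophagy genes with a promoter in the RefSeq set, 3 (9.09%) held the motif in the promoter listed first, ATG14, BNIP3 and ATG3, the last with 2 copies. The share was 10% over the 10979 promoters of genes in the NB4 table, likewise 1 per gene. It was 7.26% over all 35116 RefSeq promoters, which were not reduced to 1 per gene. A match describes these letters only and is not a measured binding site.

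**Figure D2:**
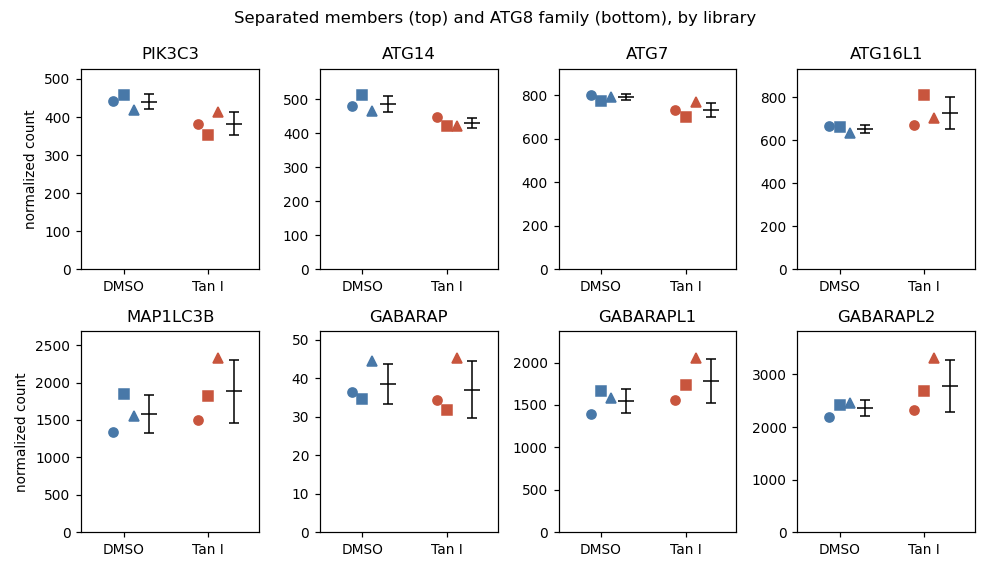
Normalized counts by library of the 4 autophagy genes whose groups did not overlap (top) and of the 4 ATG8 genes (bottom); blue is DMSO, red is Tan I, circles, squares and triangles are replicates 1, 2 and 3, and the black bars give the mean ± SD (n = 3). PIK3C3, ATG14 and ATG7 lie lower and ATG16L1 higher in every Tan I library, whereas the ATG8 genes overlap between groups.

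The ATG4 proteases, which trim ATG8 proteins before conjugation and release them afterwards, had 4 of 4 estimates above 0, from 0.06 to 0.28, with 0 called. ATG4A had the largest estimate of all 38 genes. It had 348.7, 466.2 and 393.0 normalized counts in DMSO and 421.3, 474.3 and 578.8 in Tan I, and the groups overlapped through DMSO replicate 2 (log2 fold change 0.28, SE 0.17, limma unadjusted p = 0.143). ATG4B, the most active of the proteases on many ATG8 proteins, was among the most abundant autophagy genes per length and had a mean of 5491 ± 418.6 normalized counts under DMSO against 5717 ± 312.8 under Tan I (SD, n = 3 each; log2 fold change 0.06, SE 0.11). ATG4D (0.13, SE 0.13) and ATG4C (0.16, SE 0.24) overlapped between groups. KRI1 on the opposite strand holds 14.7% of the exon bases of ATG4D.

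Of the ATG8 genes, which encode the ubiquitin-like proteins attached to the autophagosome membrane, 3 of 4 had a higher mean in Tan I with overlapping groups. MAP1LC3B, the source of the LC3 used to count autophagosomes, had 1332, 1849 and 1556 normalized counts in DMSO and 1497, 1823 and 2332 in Tan I. Tan I replicate 3 alone lay above DMSO replicate 2, and the log2 fold change was 0.24 (SE 0.19, 95% confidence interval -0.21 to 0.70, limma unadjusted p = 0.248). Without Tan I replicate 3 the estimate was 0.078 and without DMSO replicate 1 it was 0.13, whereas it was 0.40 without Tan I replicate 1. GABARAPL2 had 2191, 2422 and 2461 in DMSO and 2330.2, 2689.6 and 3319 in Tan I. Tan I replicates 2 and 3 lay above all DMSO libraries and Tan I replicate 1 within them, with a log2 fold change of 0.22 (SE 0.15, limma unadjusted p = 0.177). Without Tan I replicate 1 the estimate was 0.34 and GABARAPL2 passed both thresholds (limma unadjusted p = 0.0448), in a fit that called 8.86% of all genes tested, and without Tan I replicate 3 it was 0.09. GABARAPL1 had 1396, 1661 and 1584 in DMSO and 1554, 1738 and 2058 in Tan I. Again Tan I replicate 1 fell among the DMSO libraries (log2 fold change 0.20, SE 0.14, limma unadjusted p = 0.198). Its estimate was 0.091 without Tan I replicate 3 and 0.13 without DMSO replicate 1, whereas it was 0.29 without Tan I replicate 1 and 0.25 without DMSO replicate 2.

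GABARAP, the fourth ATG8 gene, was counted at a low level, 36.4, 34.7 and 44.5 in DMSO and 34.2, 31.6 and 45.3 in Tan I, with groups that overlapped over their whole width (log2 fold change -0.06, SE 0.26). In GENCODE release 44, 48.2% of its exon bases on chromosome 17 (7240008 to 7242449, - strand) also belong to other genes, and 1 readthrough gene on the same strand covers 35.4%. How reads in such overlaps were assigned is not given in the sources used here, so the GABARAP count is uncertain as a level of the gene. Per kilobase of exon, the mean level in DMSO was 783 ± 48.5 normalized counts for GABARAPL2, 382 ± 33.7 for GABARAPL1, 314 ± 51.5 for MAP1LC3B and 19.7 ± 2.70 for GABARAP (SD, n = 3 each). GABARAPL1 and MAP1LC3B did not stand apart beyond these SDs.

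The 5 cargo receptors overlapped between groups. SQSTM1 (p62), which links ubiquitinated cargo to ATG8 proteins, had 855.1, 1126 and 911.1 normalized counts in DMSO and 950.1, 1123 and 1249.6 in Tan I. Tan I replicate 3 was the highest library, but DMSO replicate 2 was level with Tan I replicate 2, and the log2 fold change was 0.20 (SE 0.16, limma unadjusted p = 0.24). It was 0.11 without Tan I replicate 3, 0.12 without DMSO replicate 1 and 0.32 without DMSO replicate 2. Of the exon bases of SQSTM1, 22.4% lie in other genes, mostly MRNIP on the opposite strand, and reads there cannot be assigned without a known strand setting. NBR1, a receptor of similar architecture, had a mean of 1514 ± 83.1 under DMSO against 1499 ± 85.7 under Tan I (SD, n = 3 each; log2 fold change -0.01, SE 0.11). CALCOCO2 (NDP52) and TAX1BP1, which share ancestry, had estimates of -0.07 and 0.06. OPTN was at the low end per length with GABARAP, at 18.2 ± 1.32 normalized counts per kilobase in DMSO (SD, n = 3), and its Tan I value rested on replicate 3 (129.4, against 91.9 and 84.3 in replicates 1 and 2).

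The receptors in the outer mitochondrial membrane, BNIP3 and BNIP3L, did not share a pattern. BNIP3 had the narrowest spread of all 38 genes, 1.09 between the highest and the lowest library, at 1252, 1272 and 1261 normalized counts in DMSO and 1263, 1216 and 1331 in Tan I. BNIP3L (NIX), which clears mitochondria in maturing red cells, had 1807, 2034 and 1840.1 in DMSO and 1500.3, 1669 and 1860.3 in Tan I. Tan I replicates 1 and 2 lay below all DMSO libraries and Tan I replicate 3 among them (log2 fold change -0.18, SE 0.12, limma unadjusted p = 0.186; -0.10 without Tan I replicate 1). STX17, the SNARE that lets the closed autophagosome fuse with the lysosome, ranged from 1142 to 1313 in DMSO and from 962.8 to 1283 in Tan I (log2 fold change -0.16, SE 0.14).

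**Figure D3:**
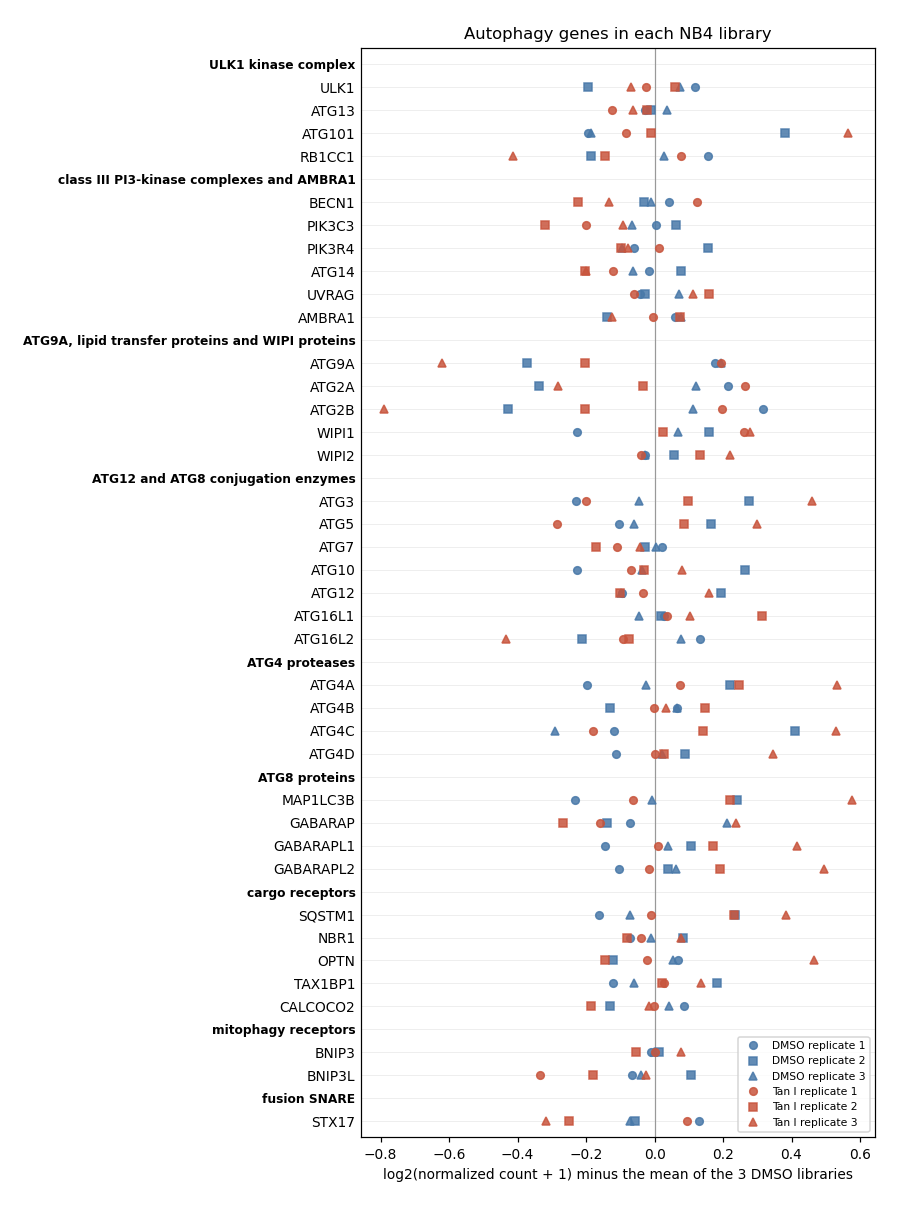
Log2(normalized count + 1) of the 38 autophagy genes in each of the 6 libraries, minus the mean of the 3 DMSO libraries of that gene; blue is DMSO, red is Tan I, and circles, squares and triangles are replicates 1, 2 and 3. For many genes DMSO replicate 2 and Tan I replicate 3 fall on the same side of the other libraries, as in ATG2B, ATG9A, ATG101 and ATG4C.

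Levels per length differed far more between autophagy genes than any gene did between libraries. In DMSO, normalized counts per kilobase of exon ran from 827 ± 63.1 for ATG4B, 783 ± 48.5 for GABARAPL2 and 725 ± 51.1 for ATG4D (SD, n = 3 each) at the top to 29.0 ± 1.29 for PIK3C3, 28.6 ± 4.98 for ATG10, 19.7 ± 2.70 for GABARAP and 18.2 ± 1.32 for OPTN at the bottom. The mean ± SD ranges overlapped among ATG4B, GABARAPL2 and ATG4D, between PIK3C3 and ATG10, and between GABARAP and OPTN, so that the order within each of these sets is not given by these libraries. Over the 6 libraries the ratio of the highest to the lowest value had a median of 1.37 and ran from 1.09 to 2.15. The lengths are those of all annotated exons of a gene joined, which overstates the length of the transcript present where many are annotated.

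The main difference between libraries was that of PC1, and the autophagy genes followed it in a share close to that of all genes tested. DMSO replicate 2 and Tan I replicate 3 had the highest PC1 scores, which were computed from these same values. In 20 of the 38 autophagy genes (52.6%), DMSO replicate 2 and Tan I replicate 3 lay both above or both below the other 4 libraries, and the share over all genes tested was 51.3%. Both libraries were above the rest in 13 genes, ATG10, ATG101, ATG12, ATG3, ATG4C, ATG4D, ATG5, BNIP3, BNIP3L, MAP1LC3B, NBR1, SQSTM1 and TAX1BP1. They were below the rest in 7 genes, AMBRA1, ATG16L2, ATG2A, ATG2B, ATG9A, RB1CC1 and ULK1. Without Tan I replicate 3 the estimates of RB1CC1, ATG16L2 and ATG4D, which are among these 20 genes, shrank to -0.034, -0.083 and 0.015. That of STX17, which is not among them, shrank to -0.076. The estimate of RB1CC1 grew in size to -0.28 without Tan I replicate 1 and to -0.25 without DMSO replicate 2. The 13 genes above the rest had a median of 5445 joined exon bases and the 7 genes below it 7673. The lengths overlapped, as with TAX1BP1 (9167) among those above and ATG9A (4724) among those below. Like medians over all genes were not computed. Whether transcript length, RNA quality or handling plays a part in the PC1 difference was not tested.

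**Figure D4:**
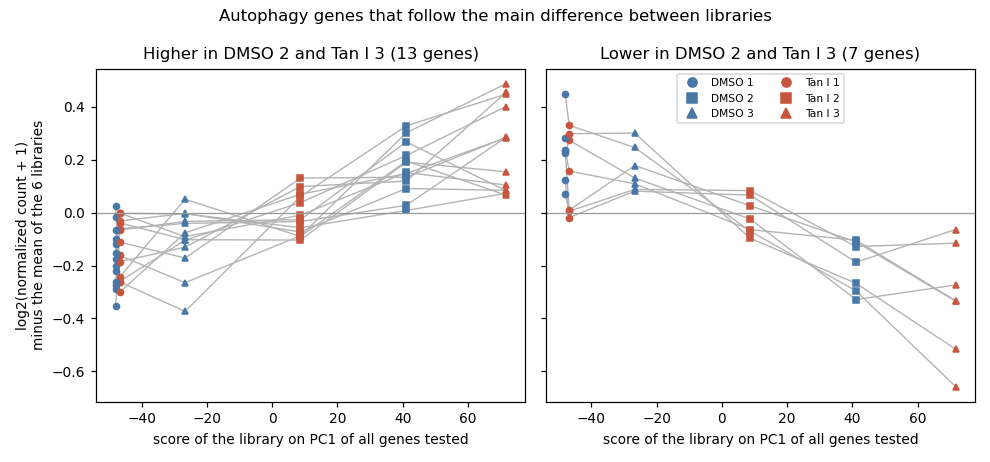
The 20 autophagy genes in which DMSO replicate 2 and Tan I replicate 3 lay both above (left, 13 genes) or both below (right, 7 genes) the other libraries; each line is a gene, the x axis is the score of the library on PC1 of all 16887 genes tested, and the y axis is log2(normalized count + 1) minus the mean of the 6 libraries. DMSO (blue) and Tan I (red) libraries alternate along the axis.

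With the PC1 score as a covariate in limma, 0 of the 38 autophagy genes were called, beside 8.86% of all genes tested. The score was computed from the same values that were tested, the autophagy genes included, and limma took it as known. The SEs and p-values of this fit may therefore be too small. Without regard to the fold, 4 autophagy genes (10.5%) had an unadjusted p of at most 0.05, compared with 15.4% of all genes. BNIP3L had the smallest, with a log2 fold change of -0.23 (SE 0.06, unadjusted p = 0.00162, limma adjusted p = 0.0842). PIK3C3 had -0.23 (SE 0.09, limma adjusted p = 0.264), ATG4A 0.19 (SE 0.09, limma adjusted p = 0.302) and GABARAPL2 0.15 (SE 0.07, limma adjusted p = 0.321). The estimate of MAP1LC3B was 0.13 in this fit and that of ATG2B -0.08. Without DMSO replicate 2 and Tan I replicate 3, 0 autophagy genes were called, beside 2.82% of all genes tested.

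The other genes of the pathway were taken from 5 lists of 90 genes, of which 86 were tested. In limma without adjustment, 2 of the 86 (2.33%) were called, beside 2.42% of all genes, and 0 were called with adjustment. Groups did not overlap in 7 (8.14%), beside 7.89% of all genes. Among 18 other autophagy receptors, 1 was called higher and 0 lower: CCPG1, a receptor for the turnover of endoplasmic reticulum, had 841.1, 956.4 and 772.8 normalized counts in DMSO and 964, 1185 and 1088 in Tan I. The groups were separate by a narrow margin between DMSO replicate 2 and Tan I replicate 1 (log2 fold change 0.33, SE 0.14, limma unadjusted p = 0.0421, adjusted p = 0.999). Among 30 genes of mTORC1, AMPK and amino acid sensing, which govern the ULK1 complex, 0 were called higher and 1 lower. This was FNIP2, a partner of folliculin, at 88.6, 76.1 and 81.3 in DMSO and 68.4, 55.9 and 38.7 in Tan I, with Tan I replicate 3 the lowest (log2 fold change -0.62, SE 0.26, limma unadjusted p = 0.0461, adjusted p = 0.999). CCPG1 lost its call without DMSO replicate 1 or 3 or Tan I replicate 2 or 3 (limma unadjusted p from 0.0797 to 0.159), with estimates of 0.26 to 0.32 in these fits. FNIP2 lost it without any library but Tan I replicate 1 (limma unadjusted p from 0.0646 to 0.137), and its estimate was -0.40 without Tan I replicate 3.

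No gene was called among 13 other autophagosome formation genes, 12 autophagosome-lysosome fusion genes and 13 transcription factors of autophagy genes, whose median log2 fold changes were -0.04, 0.02 and 0.04. Of the 7 listed promyelocyte markers, 5 had a lower and 2 a higher estimate in Tan I, and 2 were called, MPO and CTSG, both of primary granules and both lower. MPO had 60389, 64107 and 63267 normalized counts under DMSO against 33279, 39449.8 and 37076 under Tan I, with all Tan I libraries below (log2 fold change -0.78, SE 0.15, limma unadjusted p = 0.000988), and CTSG had a log2 fold change of -0.69 (SE 0.25, limma unadjusted p = 0.0262). The adjusted p was 0.999 for both in this limma fit. The uncalled markers in it were PRTN3 (-0.32), AZU1 (-0.25), CEBPE (-0.12), CD33 (0.07) and SPI1 (0.36). With the PC1 score as a covariate, the limma adjusted p was 5.5e-05 for MPO, 3.2e-05 for CTSG, 0.0246 for AZU1 and 0.0416 for PRTN3. It was 0.0721 for SPI1, 0.26 for CEBPE and 0.375 for CD33. The p-values of that fit, which called 194 genes with adjustment, may be too small.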

How the data were processed

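The authors aligned paired-end reads of NB4 cells to GRCh38 with STAR, discarded multi-mapping reads, summarized the rest by gene with featureCounts and normalized with DESeq2. Versions, annotation and strand setting are not given in the sources used here. The deposited signal of each library is a read count divided by 1 size factor. All values (100%) were whole multiples of 1 read within a tolerance of 0.01, and reads were recovered from these steps. The deposited columns of the authors' own comparison (fold change, standard error, score, p-values) were not used.

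Tan I and DMSO, grouped by the labels, were compared with limma 3.58.1 (R 4.3.3; lmFit, eBayes with trend) on log2(normalized count + 1) in 16887 genes whose mean was 10 or more, with Benjamini-Hochberg adjustment over these. Scripts were tested on simulated data. The autophagy genes and lists were chosen with earlier results of these data known, so their counts are descriptions. Every autophagy gene was named, and of the other lists the called genes, with full values for genes whose groups did not overlap, the ATG8 genes and SQSTM1; genes shown with full values beyond these were chosen after their values were seen. Fold changes of low genes are understated by the added count. Gene positions and exons came from GENCODE release 44 and promoters from RefSeq (GRCh38.p14). Alternatives were pseudocounts of 0.1 and 10, other filters, quantile normalization, equal totals, no trend, the replicate block, PC1 as a covariate, edgeR 4.0.16 (quasi-likelihood), DESeq2 1.42.0, a fold threshold of 1 and each library left out; leaving out DMSO replicate 2 with Tan I replicate 3, and the groups' overlap under other scalings, were added after seeing the data.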

Additional observations from a re-analysis of the deposited data

How the results depend on the processing

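No autophagy gene was called under any alternative but the fit without Tan I replicate 1, where GABARAPL2 was, beside 8.86% of all genes. Leaving out 1 library gave 0 to 1 called autophagy genes, 160 to 1496 genes in all and 0 to 7 related genes without adjustment. The libraries that moved the count of all genes by over 1.5 times were DMSO replicates 1 (180) and 3 (201) and Tan I replicates 1 (1496), 2 (160) and 3 (271). PC1 as a covariate called 1496 genes without adjustment, 194 with it and 10 related genes, a fold threshold of 1 called 49 genes, DESeq2 called 16 and the fit without DMSO replicate 2 and Tan I replicate 3 called 2 with adjustment. The count of 2 related genes became 1 with a mean of at least 50, without the trend, with the replicate block, with edgeR and with DESeq2, and 0 with equal totals and with the larger fold threshold. The median of the autophagy genes was -0.059 with equal totals. Replicates 1 of both groups deviated together, but replicates 2 and 3 did not (correlations 0.75, -0.09 and -0.45), so the numbers were not taken as pairs. With the replicate block, 348 genes were called without and 0 with adjustment, and 0 autophagy genes.

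The sign of the log2 fold change held under every alternative for 23 autophagy genes and changed for 15, whose estimates were at most 0.16 in size; the cause was not tested. With 1 library left out, the estimates ran from -0.0875 to 0.0346 for AMBRA1, -0.12 to 0.12 for ATG10, -0.05 to 0.35 for ATG101, -0.0675 to 0.11 for ATG12, -0.18 to 0.12 for ATG2A, -0.05 to 0.28 for ATG3, -0.0055 to 0.0924 for ATG4B, -0.02 to 0.37 for ATG4C, -0.10 to 0.19 for ATG5, -0.026 to 0.0389 for BNIP3, -0.21 to 0.043 for GABARAP, -0.06 to 0.0272 for NBR1, -0.0838 to 0.22 for OPTN, -0.10 to 0.0232 for PIK3R4 and -0.11 to 0.0475 for ULK1. With PC1 as a covariate they were 0.025 for ULK1, 0.017 for AMBRA1, 0.10 for ATG2A, -0.0054 for ATG3, -0.061 for ATG5, -0.046 for ATG12 and -0.0031 for BNIP3. With quantile normalization they were 0.0298 for ATG10, -0.034 for ATG12, -0.015 for ATG4B and -0.0088 for BNIP3, and with equal totals -0.026 for ATG5, -0.052 for ATG12 and -0.051 for BNIP3. Without DMSO replicate 2 and Tan I replicate 3 they were 0.035 for PIK3R4, -0.018 for ATG5, 0.081 for ATG10, -0.14 for OPTN and -0.0201 for BNIP3.

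With 3 libraries a group, changes smaller than the intervals given above could not be seen. ATG2B (SE 0.28), GABARAP (0.26), ATG9A (0.25), ATG4C (0.24) and ATG101 (0.24) had the widest errors of the autophagy genes.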
